A study of Homo sapiens with 16 samples.

Results

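Cells of 2 kinds were given the same epigenetic treatment, 4 lines of anaplastic large cell lymphoma (ALCL) and 4 T-cell lines from leukaemia or lymphoma, and the question was where their responses differed. All 16 of the 16 arrays entered the comparison, and 11963 genes were tested. For each gene the change in a line was its treated minus its untreated level. The mean change of the ALCL lines minus that of the T-cell lines is called the difference in change here (the interaction of treatment and cell type). A positive value means a change that was higher in ALCL lines.

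The groups were treated ALCL lines, untreated ALCL lines, treated T-cell lines and untreated T-cell lines, with n = 4 arrays in each, 1 per line. Treated lines were grown for 6 days in 1 µM 5-aza-2'-deoxycytidine, and 625 nM trichostatin A (TSA) was present over the final 24 hours. The ALCL lines were FE-PD, JB6, SU-DHL-1 and then Karpas 299, and the T-cell lines were CCRF-CEM, Jurkat, Molt-3 and then Molt-4. Values for single lines follow these orders throughout. Each line is a long-grown culture measured once per condition, and Molt-3 and Molt-4 were derived from the same patient, so the 4 T-cell lines stand for fewer donors than lines. The p-values measure the spread between lines and not that between repeat cultures of a line.

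5-Aza-2'-deoxycytidine is built into DNA and traps DNA methyltransferases, so that methylation is lost as cells divide. Trichostatin A blocks histone deacetylases, and acetylated histones build up at promoters. ALCL arises from T cells, shows the surface receptor CD30, often has an ALK fusion, and has silenced much of the T-cell receptor programme. T-cell leukaemia lines keep that programme and resemble thymocytes.

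Levels are log2 expression values from HG-U133A arrays, which read each transcript through a set of short probes near its 3' end. A level cannot fall visibly once it is near the array's background, nor rise visibly once it is near saturation. The background was therefore described by a floor of 6.66, the median over untreated arrays of the 75th percentile of 51 genes of unrelated tissues. The ceiling of 12.06 was the 99th percentile of all gene values on untreated arrays. A gene is called at an adjusted p below 0.05 in limma, with Benjamini-Hochberg adjustment over all 11963 genes. The value after ± is the standard error of the fit for a difference in change, and the SD over 4 lines for a change within a cell type.

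The labels matched the markers of the cell types on untreated arrays. The mean level of 7 ALCL markers lay between 9.80 and 11.7 on treated and between 10.9 and 12.1 on untreated ALCL arrays, against 6.70 to 7.27 on treated and 6.26 to 6.79 on untreated T-cell arrays. The mean of 8 T-cell leukaemia markers lay between 6.85 and 7.02 on treated and between 6.65 and 7.15 on untreated ALCL arrays, against 7.34 to 7.92 on treated and 9.80 to 10.1 on untreated T-cell arrays, so the treated arrays stood closer together on these markers. ALK was at the floor in FE-PD (6.39 untreated) and between 10.00 and 11.10 in the other 3 untreated ALCL lines. The 28S ribosomal RNA control rose by more than 3 log2 units on treated arrays of every ALCL line but Karpas 299 (3 lines) and of the T-cell lines Molt-3 and Molt-4 (2 lines). Neither this change nor 7 other per-line measures, among them the size of the overall response and the 3' minus 5' signal of ACTB, passed an exact permutation test between 4 ALCL and 4 T-cell lines (p between 0.257 and 0.971, adjusted p = 0.971 for all 8). The smallest p this design allows is 0.0286 before adjustment. A single measure at that p could not fall below 0.05 once adjusted over 8 measures, so this result does not show the measures to be alike.

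The treatment changed the 2 cell types in largely parallel ways, and the most frequent pattern among the genes whose change differed (87 of 201) was a fall in T-cell lines with no call in ALCL lines, the T-cell receptor genes LCK and TRAT1 among them. The difference in change was called for 201 genes, 1.68% of those tested. The change was higher in ALCL lines for 133 genes (1.11%) and lower for 68 (0.568%), and 185 of the 201 differed at least 2-fold. For each of the 201 the 4 ALCL changes and the 4 T-cell changes did not overlap, which also held in the positive direction for 478 of all genes (4%) and in the negative direction for 451 (3.77%). Across all genes the mean changes of the 2 types had a Pearson r of 0.728, a description over genes, which are not independent.

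Within ALCL lines 962 genes rose (8.04%) and 1604 fell (13.4%), and within T-cell lines 2601 rose (21.7%) and 2417 fell (20.2%). Pairs of ALCL lines had changes with r between 0.506 and 0.741 across genes (median 0.575). Pairs of T-cell lines had r between 0.657 and 0.931 (median 0.732), highest for Molt-3 with Molt-4. Pairs of an ALCL and a T-cell line had r between 0.346 and 0.673 (median 0.556). By the medians, ALCL lines were thus little more alike with each other than with T-cell lines. The calls within ALCL lines numbered 1432 without JB6 and 1526 without SU-DHL-1, in place of 2566. Those within T-cell lines numbered 2520 without Molt-3 and 2572 without Molt-4, in place of 5018. The calls for the difference in change fell to 67 without Molt-3 and to 88 without Molt-4, and to 74 with their changes averaged as 1 line, of which 73 were among the 201.

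Of the 133 genes with a higher change in ALCL lines, 87 fell in T-cell lines with no call in ALCL lines, 15 rose in ALCL lines with no call in T-cell lines, and 15 rose in ALCL lines while falling in T-cell lines. A further 9 fell in both types and 7 rose in both. Of the 68 with a lower change, 33 fell in ALCL lines with no call in T-cell lines, 12 fell in ALCL lines while rising in T-cell lines, and 12 rose in T-cell lines with no call in ALCL lines. The other members were 9 that fell in both and 2 that rose in both.

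**Figure D1:**
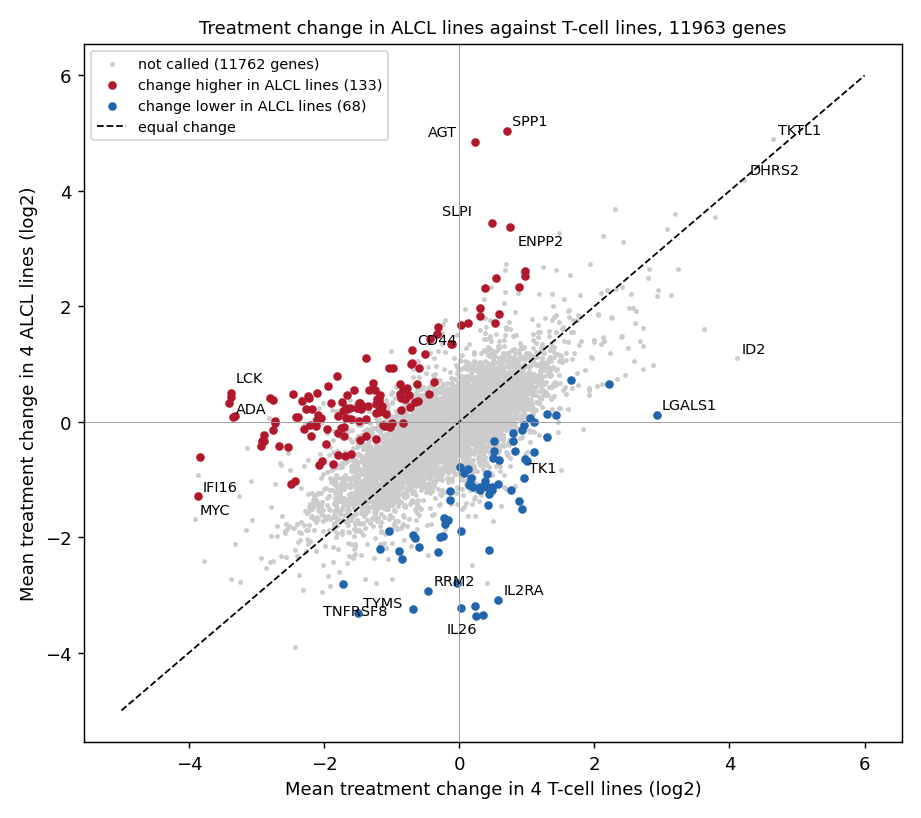
Mean treatment change of the 4 ALCL lines (vertical axis, log2) against that of the 4 T-cell lines (horizontal axis, log2), 1 point per gene. The dashed line marks equal change. The 133 red genes lie above it, most of them left of 0 where T-cell lines fell, and the 68 blue genes lie below it.

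Starting levels went with the direction of the difference, in part by construction, since both were computed from the same untreated arrays. Where the untreated ALCL mean was lower than the T-cell mean by at least 1 log2 unit, 97 of 556 genes (17.4%) had a higher change in ALCL lines and 1 (0.18%) a lower one. Where it was higher by at least 1 unit, 2 of 531 (0.377%) had a higher change and 40 (7.53%) a lower one. Among the 10876 genes whose untreated means lay within 1 unit, 34 (0.313%) were higher and 27 (0.248%) lower. In untreated cells 380 genes (3.18%) had a higher level in ALCL lines, and 668 (5.58%) a lower one. The treatment and starting-level differences share the untreated arrays, so a low untreated ALCL value gives both a lower start and a higher change. They are set side by side here, and the link between them was not tested. After treatment the 2 types stood closer than before for 106 of the 133 and for 41 of the 68. The share over all genes was not computed. Closing is partly built in where a gene that starts lower in ALCL lines is picked for a higher change, or the reverse.

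Floor and ceiling were then set beside each gene's levels. A called gene was counted as limited where the type that changed less started nearer to the floor, for a fall, or to the ceiling, for a rise, than the size of the other type's change. Of the 133 genes, 88 were limited by the floor, 1 by the ceiling and 44 by neither. Of the 68, 28 were limited by the floor, 1 by the ceiling and 39 by neither. Over all genes the same rule gave 12.3% limited by the floor and 0.518% by the ceiling. A larger change is more easily counted as limited, and called genes were picked for large differences, so these shares are not like for like. Genes with no limit whose untreated means also lay within 1 unit are called level-matched here. There were 29 of them among the 133 and 27 among the 68, that is 0.295% and 0.275% of the 9822 level-matched genes. With each line's changes measured against the trend of its changes on its untreated levels, 121 genes were higher (1.01%) and 73 lower (0.61%), and 129 of the 201 were among them.

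Raising all values under the floor to it left 65 calls, 52 of them among the 201. It also changed the variance estimate and the adjustment that all genes share. A gene with no value under the floor could thus lose its call. With the untreated level of each gene as a covariate 27 calls were made, 20 of them among the 201. In a gene whose untreated levels do not overlap between the types, that covariate and the cell type cannot be told apart.

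The genes that rose in ALCL lines from a low level shared with T-cell lines come first, because neither floor nor ceiling limited the comparison by this rule. SPP1, which encodes the secreted matrix protein osteopontin, and AGT, which encodes angiotensinogen, the precursor of angiotensin, had the 2 highest differences in change of all called genes. LCK, the first kinase of T-cell receptor signalling, had the third and stands for the genes that fell in T-cell lines with no call in ALCL lines. Their promoter windows are shown because CG dinucleotides are the sites that DNA methyltransferases act on. Each runs from 250 bases before to 50 after the RefSeq start (GRCh38.p14), 5' to 3', with CG in capitals.
SPP1: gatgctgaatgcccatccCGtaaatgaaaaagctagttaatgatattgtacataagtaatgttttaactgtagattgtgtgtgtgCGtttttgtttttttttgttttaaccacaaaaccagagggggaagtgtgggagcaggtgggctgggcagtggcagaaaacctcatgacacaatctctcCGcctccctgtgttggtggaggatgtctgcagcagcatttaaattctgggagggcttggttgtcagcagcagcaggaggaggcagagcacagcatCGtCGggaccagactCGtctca
AGT: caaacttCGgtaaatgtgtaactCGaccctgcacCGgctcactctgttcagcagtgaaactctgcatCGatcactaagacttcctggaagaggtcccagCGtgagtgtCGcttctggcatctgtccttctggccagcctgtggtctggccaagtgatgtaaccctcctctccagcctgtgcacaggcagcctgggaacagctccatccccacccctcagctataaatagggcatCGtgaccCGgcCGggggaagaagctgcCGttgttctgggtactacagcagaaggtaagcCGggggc
LCK: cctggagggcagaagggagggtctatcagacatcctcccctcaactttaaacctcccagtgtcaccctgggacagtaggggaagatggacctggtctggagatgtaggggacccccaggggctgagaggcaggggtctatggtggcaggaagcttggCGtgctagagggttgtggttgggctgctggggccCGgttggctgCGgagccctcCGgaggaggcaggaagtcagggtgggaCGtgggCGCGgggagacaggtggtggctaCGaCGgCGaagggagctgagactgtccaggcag
The windows lie at chr4:87975464-87975763, plus strand, for SPP1, at chr1:230714073-230714372, minus strand, for AGT and at chr1:32251015-32251314, plus strand, for LCK. Searched as the letters CG, which read the same on both strands, they hold 6, 11 and 10. Of the 9563 tested genes with such a window, 98.4% hold at least 1 CG, and the median is 23. Methylation was not measured, so the windows are a description only.

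SPP1 stood at 9.30, 9.55, 12.29 and 10.69 in treated ALCL lines, against 5.06, 4.96, 6.70 and 4.95 in the same lines untreated. In T-cell lines SPP1 read 5.54, 5.35, 5.60 and 5.88 treated and 5.00, 4.76, 4.88 and 4.91 untreated. Every treated ALCL line lay above all other arrays by more than 2 log2 units, while the T-cell lines stayed below the floor of 6.66 throughout. The change of SPP1 was 5.04 ± 0.74 in ALCL lines and 0.71 ± 0.20 in T-cell lines (SD, n = 4 each), both called as rises. The difference in change was 4.33 ± 0.33 (limma, adjusted p = 0.000273, 95% interval 3.60 to 5.07). With values under the floor raised to it, the SPP1 difference was 3.79 with an adjusted p of 0.0758.

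AGT stood at 9.03, 12.68, 12.77 and 11.54 in treated ALCL lines, against 6.26, 6.13, 6.76 and 7.47 in the same lines untreated. In T-cell lines AGT read 6.03, 6.28, 6.10 and 6.41 treated and 6.16, 5.71, 5.80 and 6.20 untreated. AGT rose in all 4 ALCL lines, least in FE-PD, and its T-cell values treated and untreated overlapped. The difference in change of AGT was 4.61 ± 0.70 (adjusted p = 0.0124), from a change of 4.85 ± 1.75 in ALCL lines and 0.24 ± 0.29 in T-cell lines. With values under the floor raised to it, the adjusted p of AGT was 0.0961 at a difference of 4.62.

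SLPI, an inhibitor of leukocyte proteases that epithelia secrete, and ENPP2, the enzyme autotaxin that makes lysophosphatidic acid, rose in ALCL lines too. SLPI stood at 11.61, 10.90, 10.14 and 12.01 in treated ALCL lines, against 7.62, 7.00, 7.19 and 9.04 in the same lines untreated. In T-cell lines SLPI read 7.18, 7.01, 7.43 and 7.78 treated and 7.04, 6.54, 6.93 and 6.93 untreated. The treated ALCL lines were all above every other SLPI value, and the difference in change was 2.96 ± 0.29 (adjusted p = 0.00092).

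ENPP2 stood at 9.76, 9.72, 9.29 and 9.72 in treated ALCL lines, against 6.61, 6.28, 5.84 and 6.28 in the same lines untreated. In T-cell lines ENPP2 read 6.93, 6.68, 6.29 and 6.29 treated and 5.82, 5.75, 5.78 and 5.83 untreated. All 4 treated ALCL values of ENPP2 were above every other value. ENPP2 rose by 3.37 in ALCL lines and also, by 0.75, in T-cell lines, and the difference in change was 2.62 ± 0.20 (adjusted p = 0.000273).

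Smaller rises of the same kind were seen for S100P, a calcium-binding protein of epithelial tumours, STC1, the secreted glycoprotein stanniocalcin, and DEPP1, a FOXO target. S100P changed by 1.52, 2.25, 1.86 and 2.27 in ALCL lines and by 0.24, 0.22, 0.29 and 0.49 in T-cell lines. Its difference in change was 1.66 ± 0.20 (adjusted p = 0.00379). That of STC1 was 1.96 ± 0.33 (adjusted p = 0.0197), and its adjusted p was 0.0793 without Molt-3 and 0.0581 without Molt-4. DEPP1 had 1.92 ± 0.32 (adjusted p = 0.0185, and 0.0564 without Molt-3). All of these genes were level-matched.

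Of 25 measured epithelial genes S100P was the 1 called member, and the median difference in change of that list was -0.01, against -0.05 over all genes. Of 44 matrix and mesenchymal genes 2 were higher, SPP1 among them, and 1 lower (median -0.12). Of all genes 1.11% were higher and 0.568% lower. The mean level of the epithelial list lay between 6.45 and 6.85 in treated ALCL lines, with 13 of 25 members at or below the floor, against 5.96 to 6.15 in the same lines untreated. In T-cell lines it lay between 6.11 and 6.34 treated and between 5.80 and 5.87 untreated.

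**Figure D2:**
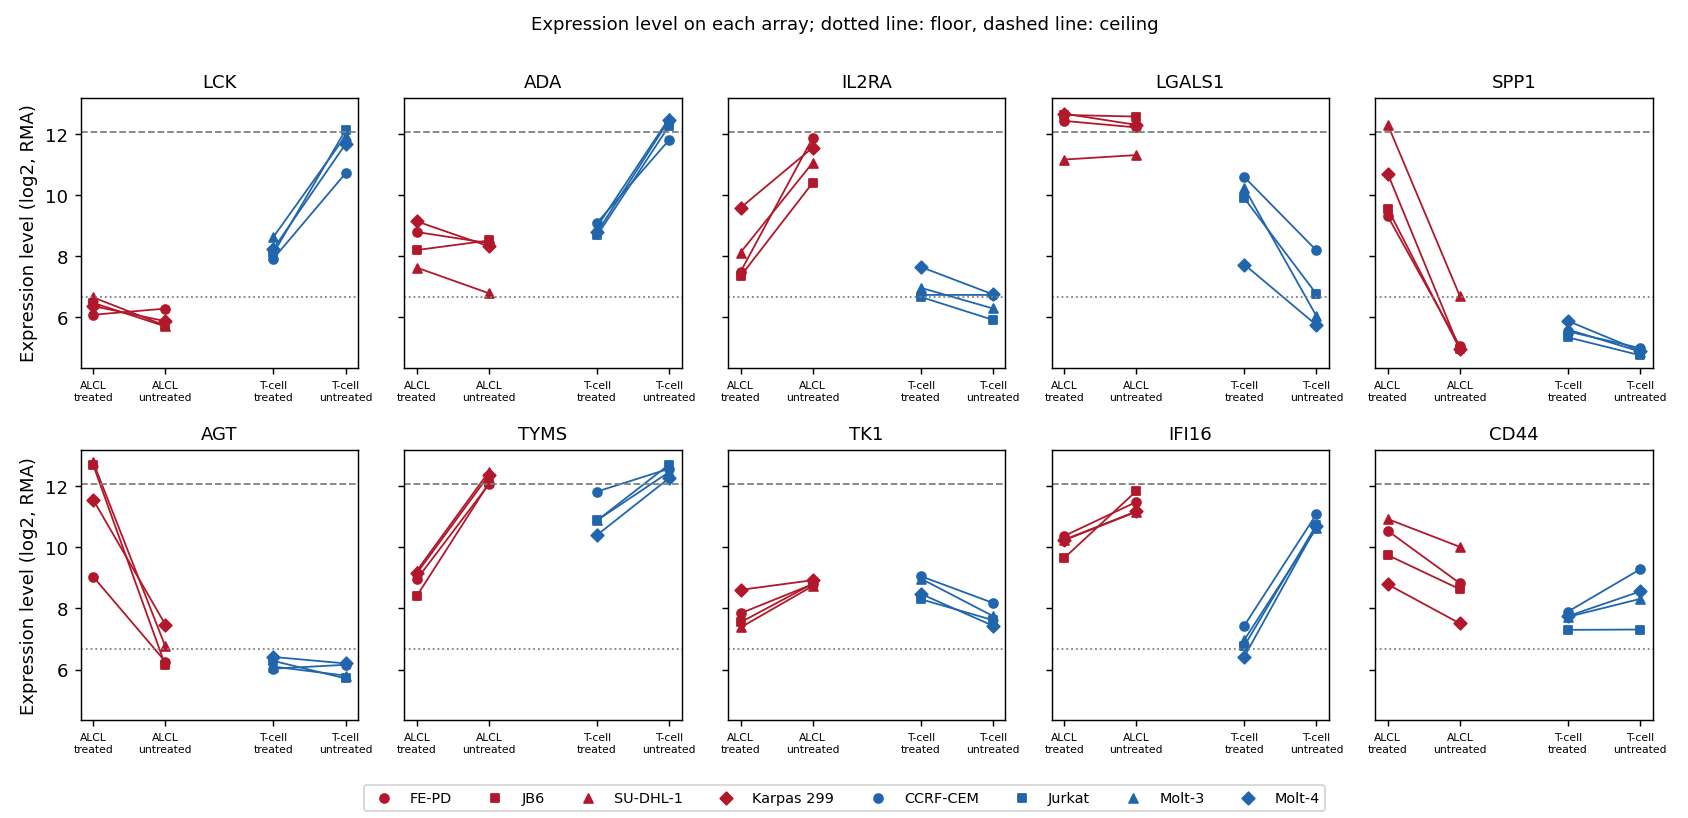
Expression level (log2, vertical axis) of 10 genes on each of the 16 arrays, with lines joining the treated and the untreated array of a cell line, ALCL in red and T-cell in blue. The dotted line is the floor (6.66) and the dashed line the ceiling (12.06). LCK and ADA start lower in ALCL than in T-cell lines, LGALS1 starts near the ceiling in ALCL lines other than SU-DHL-1, and SPP1, AGT, TYMS, IFI16 and CD44 start at like levels in both types.

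CD44, the hyaluronan receptor, and NRN1, the membrane protein neuritin, moved in opposite directions in the 2 types. CD44 changed by 1.71, 1.11, 0.91 and 1.27 in ALCL lines and by -1.38, -0.01, -0.59 and -0.81 in T-cell lines. It rose in ALCL lines and fell in T-cell lines, with a difference in change of 1.95 ± 0.29 (adjusted p = 0.0119), from untreated means of 8.74 in ALCL lines and 8.36 in T-cell lines. NRN1 changed by 0.79, 0.99, 0.74 and 0.64 in ALCL lines and by -1.95, -1.58, -2.19 and -1.53 in T-cell lines, a difference of 2.60 ± 0.20 (adjusted p = 0.000273). Unlike CD44, NRN1 started from different levels, 6.26 in ALCL lines and 9.90 in T-cell lines. In all, 17 genes rose in ALCL lines and fell in T-cell lines, 15 of them among the 201, and 14 did the reverse, 12 of them among the 201.

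Most genes of the T-cell receptor list fell in T-cell lines, and before treatment the list stood lower in ALCL lines. Its median untreated level was 7.62 in ALCL lines and 8.84 in T-cell lines, against 7.22 and 7.18 over all genes. A higher change in ALCL lines was called for 11 of 27 measured T-cell receptor and proximal signalling genes, against 1.11% of all genes. A lower one was called for 0, and the median difference in change was 1.34, against -0.05 over all genes. In ALCL lines 4 of the 27 fell (against 13.4% of all genes) and 1 rose (against 8.04%). In T-cell lines 20 fell (against 20.2% of all genes) and 0 rose (against 21.7%). The median change in single lines was -0.22, 0.22, 0.14 and -0.02 in ALCL lines and -1.56, -1.77, -1.61 and -1.84 in T-cell lines. By the limit rule 13 of the 27 were limited by the floor, and the 9 level-matched members had a median difference of 0.34. With changes measured against the trend on untreated level the median was 0.91 with 8 calls, and with values raised to the floor it was 1.15 with 6 calls. With the untreated level of each gene as a covariate the list's median was -0.05 with 0 calls.

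LCK stood at 6.08, 6.47, 6.65 and 6.37 in treated ALCL lines, against 6.29, 5.71, 5.73 and 5.88 in the same lines untreated. In T-cell lines LCK read 7.92, 8.09, 8.63 and 8.24 treated and 10.70, 12.12, 11.93 and 11.66 untreated. The ALCL lines stayed at or below the floor on every array, and all treated T-cell lines were still above them. LCK changed by 0.50 ± 0.50 in ALCL lines and by -3.38 ± 0.51 in T-cell lines, where the level fell 10.4-fold. The difference in change was 3.88 ± 0.31 (adjusted p = 0.000356), and 3.04 against the trend on untreated level (adjusted p = 0.0022).

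TRAT1, an adaptor of the T-cell receptor complex, CD3G and CD3E, signalling chains of that complex, and UBASH3A, which dampens its signalling, fell in the same way. TRAT1 stood at 4.12, 4.55, 4.51 and 4.30 in treated ALCL lines, against 4.26, 3.76, 3.90 and 4.27 in the same lines untreated. In T-cell lines TRAT1 read 4.67, 4.15, 5.06 and 5.18 treated and 8.13, 7.71, 8.38 and 8.47 untreated. For TRAT1 the changes differed by 3.73 ± 0.23 (adjusted p = 0.000177).

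CD3E stood at 7.75, 7.91, 7.87 and 7.96 in treated ALCL lines, against 7.96, 7.64, 7.69 and 7.20 in the same lines untreated. In T-cell lines CD3E read 9.29, 8.49, 9.18 and 9.39 treated and 10.57, 10.91, 10.77 and 10.82 untreated. CD3E lay above the floor in ALCL lines on every array and no fall was called there, at a difference in change of 1.93 ± 0.29 (adjusted p = 0.0119). Against the trend on untreated level that of CD3E was 1.20 (adjusted p = 0.143), and with values raised to the floor its adjusted p was 0.0696. No CD3E value lay under the floor, so raising values to it left the CD3E difference unchanged. CD3G changed by -0.18, 0.77, 0.13 and 0.20 in ALCL lines and by -1.90, -2.76, -2.22 and -2.17 in T-cell lines (2.49 ± 0.25, adjusted p = 0.00131). UBASH3A had a difference of 2.64 ± 0.29 (adjusted p = 0.00212), and its 4 T-cell changes lay between -2.30 and -2.17.

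Thymocyte and T-cell surface genes showed 7 higher and 0 lower calls among 25 measured, with a median difference of 1.17, and 15 of the 25 were limited by the floor. A higher change was called for 1.11% of all genes. In ALCL lines 1 of the 25 fell (against 13.4% of all genes) and 0 rose (against 8.04%). In T-cell lines 16 fell (against 20.2% of all genes) and 0 rose (against 21.7%). With values raised to the floor 1 call was left in this list, with Molt-3 and Molt-4 averaged 4, and with the untreated level as a covariate 0 at a median of 0.10.

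ADA, adenosine deaminase, the enzyme of purine salvage that thymocytes hold at a high level, had the lowest adjusted p of this list. ADA stood at 8.79, 8.20, 7.62 and 9.13 in treated ALCL lines, against 8.43, 8.51, 6.79 and 8.32 in the same lines untreated. In T-cell lines ADA read 9.09, 8.67, 8.96 and 8.77 treated and 11.80, 12.26, 12.51 and 12.45 untreated. The treated T-cell values lay within the range of the treated ALCL ones, and the groups of changes did not overlap. For ADA the changes differed by 3.80 ± 0.31 (adjusted p = 0.000356). ADA changed by 0.43 ± 0.54 in ALCL lines and by -3.38 ± 0.45 in T-cell lines. Its untreated ALCL mean of 8.01 left less room above the floor than the T-cell fall, so it counts as limited. Of the ALCL lines JB6 alone had a lower treated level.

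RAG1, which cuts the antigen receptor genes, changed by -0.27, 0.17, 0.18 and -0.03 in ALCL lines, where its untreated mean of 4.75 was below the floor, and by -2.95, -1.50, -3.78 and -2.68 in T-cell lines. CD1D, which presents lipids, and CD7, an early T-cell surface protein, had differences in change of 2.70 ± 0.35 and 2.13 ± 0.30 (adjusted p = 0.00567 and 0.00972). That of RAG1 was 2.74 ± 0.40 (adjusted p = 0.011). For CD1D, RAG1 and CD7 the adjusted p with values raised to the floor was 0.479, 0.411 and 0.0758.

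Among 22 T-lineage transcription factors (median 0.30) 4 had a higher change in ALCL lines, against 1.11% of all genes, and 0 a lower one. TOX, needed for CD4 T-cell development, and BCL11B, which commits progenitors to the T lineage, led them. TOX stood at 3.90, 4.87, 4.45 and 5.10 in treated ALCL lines, against 3.76, 4.46, 3.83 and 5.89 in the same lines untreated. In T-cell lines TOX read 5.26, 5.11, 6.22 and 5.56 treated and 8.70, 8.84, 9.01 and 8.87 untreated. TOX was lower after treatment in all 4 T-cell lines, with a difference in change of 3.42 ± 0.32 (adjusted p = 0.000727). BCL11B changed by -0.57, -0.50, 0.30 and 0.22 in ALCL lines and by -2.60, -2.55, -2.84 and -3.01 in T-cell lines (2.61 ± 0.24, adjusted p = 0.000727).

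Other genes with this pattern have roles in signalling, adhesion and metabolism. GNA15, a G protein subunit of haematopoietic cells, had a difference in change of 3.21 ± 0.22 (adjusted p = 0.000259), and PRKCH, a protein kinase C, one of 2.95 ± 0.44 (adjusted p = 0.0116). ITGB2, the beta chain of the leukocyte integrins, changed by -0.18, 0.74, 0.57 and 0.89 in ALCL lines and by -2.14, -2.02, -2.08 and -2.20 in T-cell lines (2.61 ± 0.23, adjusted p = 0.000598). ALDH1A2, which makes retinoic acid, had means of 7.57 in treated and 7.20 in untreated ALCL lines, and fell to 7.46 in treated T-cell lines, against 10.21 untreated. Its difference was 3.13 ± 0.26 (adjusted p = 0.000365). For PRKCH the adjusted p was 0.0841 with values raised to the floor.

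B-cell and myeloid markers included 3 called genes, all with a higher change in ALCL lines, as was seen for 1.11% of all genes. Of 19 B-cell markers 2 were called, IGLL1, the surrogate light chain of immature lymphocytes (2.67, adjusted p = 0.00272), and the complement receptor CR2 (1.21, adjusted p = 0.0413). Of 25 myeloid markers 1 was called, AIF1, an actin-binding protein of macrophages (2.68, adjusted p = 0.00123). Each of these fell in T-cell lines, and the list medians were -0.13 and -0.09. The mean level of the B-cell list lay between 6.24 and 6.83 in treated and between 6.13 and 6.54 in untreated ALCL lines, against 6.40 to 6.72 in treated and 6.42 to 6.63 in untreated T-cell lines. The call of CR2 was lost when any of 7 lines was left out, with adjusted p of 0.0743 without FE-PD, 0.0979 without JB6, 0.0966 without SU-DHL-1, 0.0775 without Karpas 299, 0.0755 without Jurkat, 0.157 without Molt-3 and 0.118 without Molt-4.

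**Figure D3:**
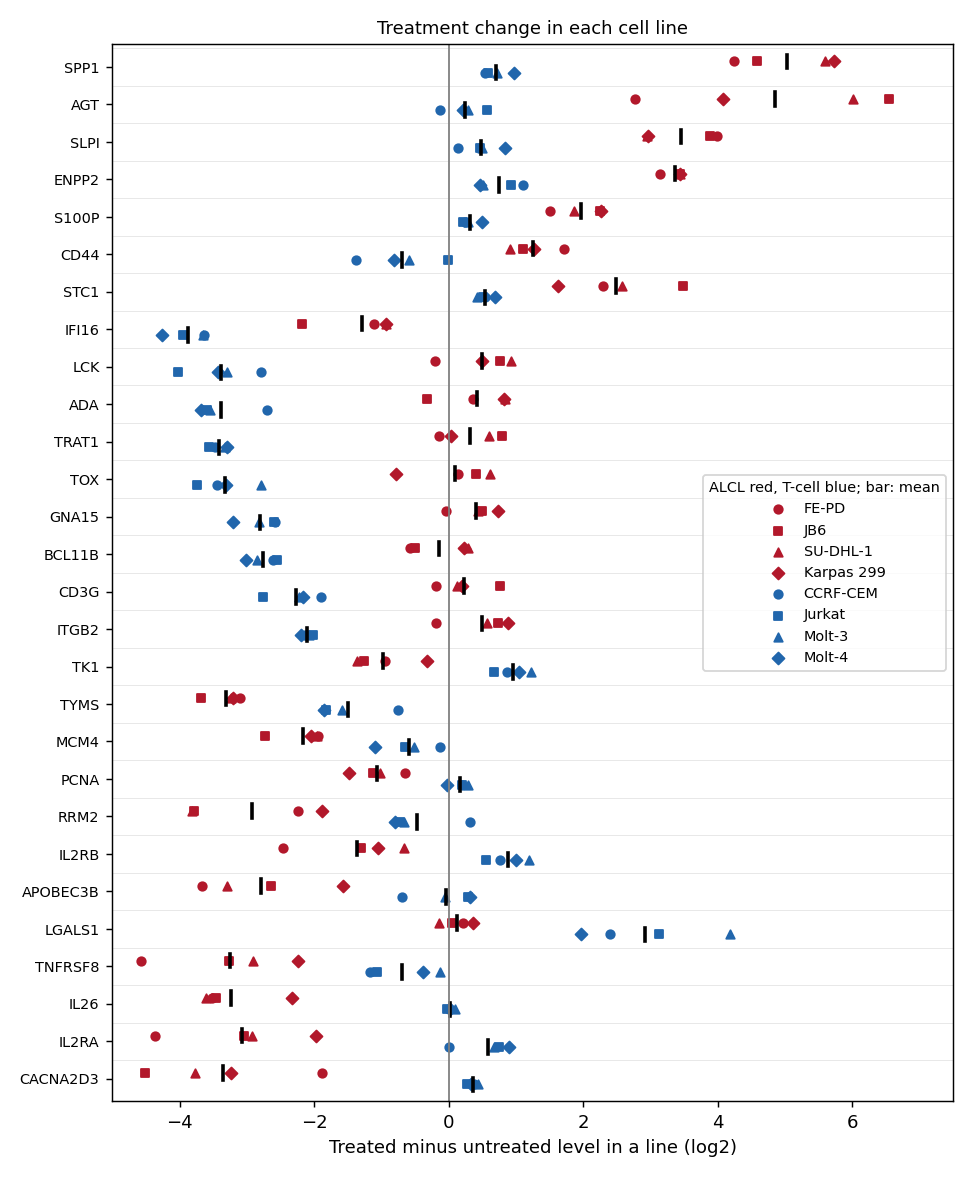
Treated minus untreated level (log2, horizontal axis) of 28 called genes in each cell line, ALCL in red above and T-cell in blue below in each row, with the mean as a black bar. The 4 ALCL and the 4 T-cell points do not overlap for any of these genes, and the T-cell points of LCK, ADA, TRAT1 and TOX lie below -2.7 while the ALCL points lie within 1 unit of 0.

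Genes with a lower change in ALCL lines included cytokine and receptor genes of ALCL itself. The 31 measured ALCL-associated genes had a median difference of -0.34. Of these, 4 had a lower change in ALCL lines, against 0.568% of all genes, and 0 a higher one. They were IL26, IL2RA, TNFRSF8 and LGALS1. Of 32 JAK-STAT and cytokine receptor genes 3 were lower, IL26, IL2RA and IL2RB, and 0 higher (median -0.11). The ALCL-associated list holds markers of the disease, a few of which were reported in these lines, so its direction is not independent evidence. For the ALCL list 0 calls were left with values raised to the floor. Its median was -0.05 with 3 lower calls against the trend on untreated level, and 0.21 with 1 higher call and 0 lower with the untreated level as a covariate.

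IL26 stood at 4.00, 4.42, 5.50 and 6.75 in treated ALCL lines, against 7.52, 7.87, 9.10 and 9.09 in the same lines untreated. In T-cell lines IL26 read 3.88, 3.85, 3.77 and 3.87 treated and 3.86, 3.88, 3.67 and 3.85 untreated. IL26, a cytokine of activated T cells, fell in all 4 ALCL lines, least in Karpas 299, and the T-cell lines lay far below the floor on every array. The difference in change was -3.25 ± 0.27 (adjusted p = 0.000405), and -1.72 with an adjusted p of 0.178 after values were raised to the floor.

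IL2RA stood at 7.49, 7.34, 8.12 and 9.58 in treated ALCL lines, against 11.85, 10.39, 11.05 and 11.54 in the same lines untreated. In T-cell lines IL2RA read 6.73, 6.67, 6.97 and 7.65 treated and 6.73, 5.92, 6.29 and 6.75 untreated. IL2RA, which encodes CD25, the alpha chain of the interleukin-2 receptor, fell 8.44-fold in the mean of ALCL lines. The treated ALCL values stayed above the untreated T-cell values, and the T-cell lines changed by 0.58 ± 0.40. Between the types the change differed by -3.66 ± 0.44 (adjusted p = 0.00341), and its adjusted p was 0.0647 with values raised to the floor.

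TNFRSF8 stood at 7.48, 7.73, 8.13 and 9.56 in treated ALCL lines, against 12.05, 11.00, 11.05 and 11.80 in the same lines untreated. In T-cell lines TNFRSF8 read 7.09, 7.09, 7.21 and 7.14 treated and 8.26, 8.15, 7.34 and 7.52 untreated. TNFRSF8, which encodes CD30, fell in every ALCL line, and its treated values in FE-PD, JB6 and SU-DHL-1 lay within the range of untreated T-cell lines. The changes of the 2 types differed by -2.56 ± 0.45 (adjusted p = 0.0214). The adjusted p of TNFRSF8 was 0.0636 without JB6, 0.0855 without Molt-3 and 0.0732 without Molt-4, and 0.072 against the trend on untreated level.

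IL2RB, the beta chain of the same receptor, was above the floor on every array. IL2RB stood at 9.98, 10.35, 11.43 and 12.36 in treated ALCL lines, against 12.44, 11.65, 12.08 and 13.40 in the same lines untreated. In T-cell lines IL2RB read 8.70, 8.47, 8.85 and 9.09 treated and 7.93, 7.91, 7.65 and 8.08 untreated. IL2RB fell in ALCL lines and rose in T-cell lines, with a difference in change of -2.25 ± 0.35 (adjusted p = 0.0127). The adjusted p of IL2RB was 0.0555 without Molt-3, 0.0507 with Molt-3 and Molt-4 averaged, 0.0597 against the trend on untreated level and 0.0841 with values raised to the floor. Raising values to the floor left its difference at -2.25, so that adjusted p moved through the variance and adjustment shared with other genes. IL2RB was also the 1 called gene of 14 NK-cell markers (median -0.30), and 0.568% of all genes were called lower. The mean level of that list lay between 7.01 and 7.27 in treated and 6.88 and 7.35 in untreated ALCL lines, against 6.83 to 7.39 in treated and 6.40 to 6.86 in untreated T-cell lines.

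CACNA2D3, a calcium channel subunit, GAS1, a membrane protein that restrains growth, APOBEC3B, a DNA cytidine deaminase, and TNS3, a focal adhesion protein, fell in ALCL lines with no call in T-cell lines. CACNA2D3 changed by -1.89, -4.52, -3.77 and -3.24 in ALCL lines and by 0.38, 0.28, 0.44 and 0.34 in T-cell lines, the lowest difference of all called genes (-3.71 ± 0.45, adjusted p = 0.00379). APOBEC3B changed by -3.66, -2.63, -3.29 and -1.57 in ALCL lines and by -0.68, 0.29, -0.05 and 0.32 in T-cell lines (-2.76 ± 0.42, adjusted p = 0.0126), and TNS3 had a difference of -2.65 ± 0.37 (adjusted p = 0.00831). GAS1 had -3.61 ± 0.64 (adjusted p = 0.0216, and 0.0861 without Molt-3 and 0.0732 without Molt-4). The untreated T-cell means of these 4 genes lay between 4.82 and 5.59, below the floor. With values raised to it, the adjusted p was 0.35 for CACNA2D3, 0.169 for GAS1 and 0.0717 for APOBEC3B.

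LGALS1, which encodes galectin-1, a lectin that ALCL cells hold at a high level, was the 1 gene of the 68 limited by the ceiling. LGALS1 stood at 12.42, 12.61, 11.15 and 12.65 in treated ALCL lines, against 12.20, 12.56, 11.30 and 12.29 in the same lines untreated. In T-cell lines LGALS1 read 10.58, 9.89, 10.23 and 7.73 treated and 8.19, 6.76, 6.04 and 5.75 untreated. LGALS1 rose in all 4 T-cell lines and was near the ceiling of 12.06 in ALCL lines from the start, except SU-DHL-1. SU-DHL-1 began about 1 log2 unit lower and changed by -0.15. ALCL minus T-cell, the change differed by -2.80 ± 0.41 (adjusted p = 0.011), and its adjusted p was 0.178 with values raised to the floor.

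ID2, an inhibitor of helix-loop-helix factors, was not called, and 1 line set its spread. ID2 stood at 11.33, 10.06, 11.70 and 11.29 in treated ALCL lines, against 6.79, 10.21, 11.72 and 11.26 in the same lines untreated. In T-cell lines ID2 read 10.10, 10.45, 10.09 and 8.97 treated and 5.18, 6.34, 6.29 and 5.38 untreated. FE-PD started low and changed by 4.54, within the range of the T-cell changes (4.93, 4.11, 3.80 and 3.59), while the other 3 ALCL lines started high and changed by -0.15, -0.02 and 0.03. Between the types the change differed by -3.01 ± 0.93 (adjusted p = 0.175), and without FE-PD it was -4.15 (adjusted p = 0.000426).

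JUN, a subunit of the AP-1 factor, behaved in a like way. JUN changed by 1.71, -0.11, 0.24 and 0.47 in ALCL lines and by 1.89, 2.08, 1.91 and 1.79 in T-cell lines, with a difference of -1.34 ± 0.34 (adjusted p = 0.0991). Without FE-PD the difference of JUN was -1.71 (adjusted p = 0.00449).

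ALK, the kinase gene fused in many ALCL, had a difference of -1.37 ± 0.31 (adjusted p = 0.0688), from changes of 0.02, -1.16, -1.32 and -0.58 in ALCL lines, where FE-PD lay at the floor. Without FE-PD the difference of ALK was -1.63 (adjusted p = 0.0251). CLU, the secreted chaperone clusterin, had -0.98 ± 0.52 (adjusted p = 0.483). CLU changed by 2.82, 2.42, 0.50 and 0.39 in T-cell lines, so CCRF-CEM and Jurkat stood apart from Molt-3 and Molt-4, and its untreated ALCL mean of 12.55 was above the ceiling. Within lines with a 28S rise the difference of CLU was 0.20 and within those without it -2.35.

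Genes of DNA replication and nucleotide supply fell further in ALCL lines, and most of them started from like levels. Of 41 measured, 11 had a lower change in ALCL lines, against 0.568% of all genes, and 0 a higher one. The median difference in change was -0.80, against -0.05 over all genes. The difference was negative for 37 of the 41, and the 35 level-matched members had the same median. In ALCL lines 37 fell (against 13.4% of all genes) and 0 rose, with a median change of -1.44. In T-cell lines 28 fell (against 20.2% of all genes) and 1 rose, with a median of -0.77. The median change in single lines was -1.31, -1.65, -1.82 and -1.40 in ALCL lines and -0.58, -0.72, -0.80 and -0.81 in T-cell lines, with no overlap. The calls numbered 19 against the trend on untreated level, 1 with values raised to the floor, 1 with arrays centred on the hybridisation spikes, 3 with Molt-3 and Molt-4 averaged and 2 without Molt-3. With values raised to the floor the list median was -0.75. The median lay between -1.01 and -0.66 over all alternatives.

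TYMS, thymidylate synthase, which makes dTMP from dUMP, started near the ceiling in both types. TYMS stood at 8.95, 8.41, 9.23 and 9.15 in treated ALCL lines, against 12.05, 12.09, 12.46 and 12.35 in the same lines untreated. In T-cell lines TYMS read 11.81, 10.87, 10.88 and 10.39 treated and 12.56, 12.69, 12.45 and 12.25 untreated. All treated ALCL values of TYMS lay below all treated T-cell values, although the untreated ones overlapped. TYMS fell by 3.30 ± 0.26 in ALCL lines and by 1.50 ± 0.52 in T-cell lines, with a difference in change of -1.80 ± 0.27 (adjusted p = 0.0116).

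TK1, thymidine kinase, which salvages thymidine, moved in opposite directions. TK1 stood at 7.84, 7.54, 7.37 and 8.60 in treated ALCL lines, against 8.79, 8.80, 8.73 and 8.92 in the same lines untreated. In T-cell lines TK1 read 9.05, 8.30, 8.97 and 8.47 treated and 8.18, 7.62, 7.75 and 7.43 untreated. TK1 fell in each ALCL line and rose in each T-cell line, so that the treated T-cell lines lay above 3 of the 4 treated ALCL lines. The changes of the 2 types differed by -1.92 ± 0.25 (adjusted p = 0.005), and its adjusted p was 0.00674 against the trend on untreated level. TK1 started higher in every ALCL line than in any T-cell line and was not level-matched. Its call was lost with the untreated level as a covariate, which in TK1 cannot be told apart from the cell type.

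RRM2, the regulated subunit of ribonucleotide reductase, which makes deoxynucleotides, MCM4, a subunit of the replicative helicase, and PCNA, the sliding clamp of DNA polymerases, belong to the same list. RRM2 changed by -2.24, -3.79, -3.81 and -1.88 in ALCL lines and by 0.32, -0.72, -0.67 and -0.79 in T-cell lines, a difference of -2.46 ± 0.46 (adjusted p = 0.0287). MCM4 changed by -1.94, -2.73, -1.96 and -2.04 in ALCL lines and by -0.12, -0.64, -0.52 and -1.09 in T-cell lines (-1.57 ± 0.26, adjusted p = 0.0164). PCNA changed by -0.65, -1.12, -1.01 and -1.48 in ALCL lines and by 0.20, 0.20, 0.29 and -0.03 in T-cell lines (-1.23 ± 0.20, adjusted p = 0.0165). PCNA was lower after treatment in each ALCL line, and no T-cell change was called. Leaving out 1 line ended these calls. The adjusted p of MCM4 was 0.0675 without Molt-3, that of PCNA was 0.0759 without Molt-3, and that of RRM2 was 0.0755 without JB6, 0.0597 without SU-DHL-1, 0.0616 without CCRF-CEM, 0.0547 without Jurkat, 0.0881 without Molt-3 and 0.0711 without Molt-4.

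PCLAF, which binds PCNA, and SLBP, which binds histone mRNA in S phase, were not on the list but were among the lowest level-matched genes. PCLAF had a difference of -1.94 ± 0.36 (adjusted p = 0.0259, and 0.072 without JB6, 0.0603 without CCRF-CEM, 0.0924 without Molt-3 and 0.0868 without Molt-4). SLBP changed by 0.08, -1.19, -0.44 and -1.02 in ALCL lines and by 0.99, 0.92, 1.18 and 0.80 in T-cell lines (-1.62 ± 0.27, adjusted p = 0.0185, and 0.0786 without Molt-3 and 0.0516 without Molt-4).

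Mitotic genes fell in both types. Of 44 cell cycle and mitosis genes 31 fell in ALCL lines and 34 in T-cell lines, against 13.4% and 20.2% of all genes. Among the 44, 1 difference in change was called, against 1.68% of all genes, and the list median was -0.31. The median change in single lines was -1.33, -2.20, -1.93 and -0.71 in ALCL lines and -0.30, -1.23, -1.24 and -1.64 in T-cell lines, and these ranges overlap. The called gene was ZWINT, a kinetochore protein (-1.03, adjusted p = 0.0475). Its call was lost in 7 of the 8 fits without 1 line, with adjusted p of 0.0937 without FE-PD, 0.0648 without JB6, 0.107 without SU-DHL-1, 0.0893 without Karpas 299, 0.101 without CCRF-CEM, 0.173 without Molt-3 and 0.144 without Molt-4. The fraction of cells in each cycle phase was not measured, and in bulk RNA fewer cells in a phase and less RNA per cell cannot be told apart.

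**Figure D4:**
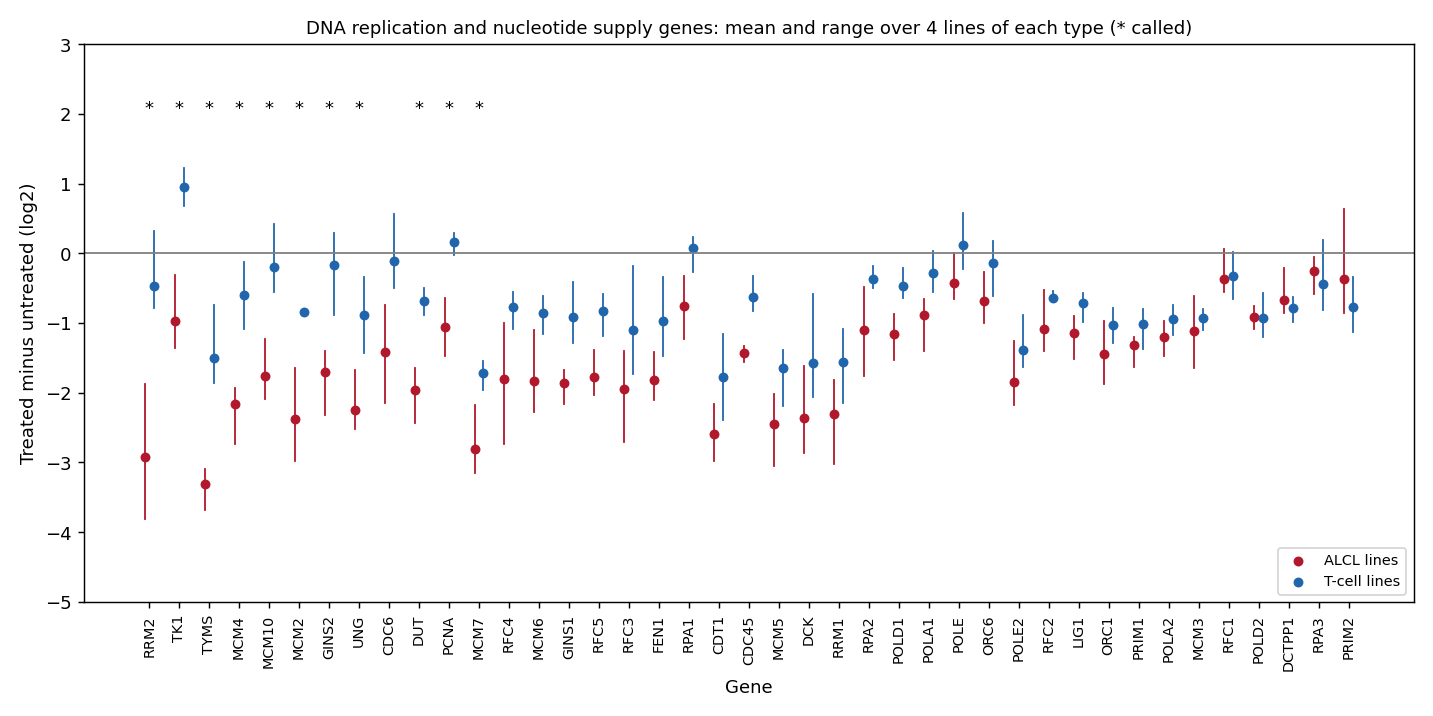
Treated minus untreated level (log2, vertical axis) of the 41 DNA replication and nucleotide supply genes, ordered by the difference in change, with the mean (point) and range (bar) over 4 ALCL lines in red, left, and 4 T-cell lines in blue, right. Asterisks mark the 11 called genes. The red points lie below the blue ones for 37 of the 41 genes, and among the called genes TK1 and PCNA have a T-cell mean above 0.

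IFI16, a nuclear DNA sensor induced by interferon, fell in both types and far more in T-cell lines. IFI16 stood at 10.36, 9.64, 10.22 and 10.24 in treated ALCL lines, against 11.47, 11.83, 11.15 and 11.16 in the same lines untreated. In T-cell lines IFI16 read 7.44, 6.78, 6.97 and 6.42 treated and 11.08, 10.73, 10.62 and 10.68 untreated. Untreated levels were high and close in both types, and treated T-cell lines ended near the floor while treated ALCL lines did not go below 9.64. The fall was 2.44-fold in ALCL lines and 14.7-fold in T-cell lines. ALCL minus T-cell, the change differed by 2.59 ± 0.30 (adjusted p = 0.00283), and IFI16 was level-matched.

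Among 34 interferon-stimulated genes 3 had a higher change in ALCL lines, against 1.11% of all genes, and 0 a lower one. The median difference was 0.46. In ALCL lines 6 fell and 7 rose, and in T-cell lines 15 fell and 4 rose. Over all genes 13.4% fell and 8.04% rose in ALCL lines, and 20.2% fell and 21.7% rose in T-cell lines. The median change in single lines was 0.13, 0.07, 0.16 and -0.01 in ALCL lines and -0.23, -0.10, -0.68 and -0.69 in T-cell lines. The list median was 0.86 within lines with a 28S rise and 2.75e-05 within those without one. With the 28S change as a covariate it was 0.50, with 4 higher calls.

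IRF1, a transcription factor of the interferon response, changed by 0.23, 0.05, 0.37 and 0.08 in ALCL lines and by -1.08, -1.28, -1.13 and -1.07 in T-cell lines (1.32 ± 0.16, adjusted p = 0.00341). IRF1 fell in each T-cell line by more than 1 log2 unit. Against the trend on untreated level its difference was 0.85 (adjusted p = 0.06). OAS3, which makes the 2-5A signal, had 1.27 ± 0.22 (adjusted p = 0.0196, and 0.0675 without Molt-3 and 0.0516 without Molt-4).

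MYC, the growth factor-induced transcription factor, fell in both types but was not called for the difference. MYC changed by -1.97, -3.28, -1.53 and 0.03 in ALCL lines and by -4.34, -3.34, -3.76 and -4.23 in T-cell lines (2.23 ± 0.58, adjusted p = 0.104). Karpas 299 was the 1 line of 8 in which MYC did not fall. Without JB6 the difference of MYC was 2.76 (adjusted p = 0.0336). The 26 genes of MYC and ribosome biogenesis had 0 calls and a median difference of 0.12. Of the 26, 15 fell in ALCL lines and 17 in T-cell lines, against 13.4% and 20.2% of all genes.

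Of 22 cholesterol and fatty acid synthesis genes 6 fell in ALCL lines and 14 in T-cell lines, against 13.4% and 20.2% of all genes. Of the 22 (median 0.44), 2 had a higher change in ALCL lines, against 1.11% of all genes, and 0 a lower one. They were ACAT2, which condenses acetyl-CoA (1.22 ± 0.20, adjusted p = 0.0172), and SC5D, a late enzyme of cholesterol synthesis (0.98 ± 0.20, adjusted p = 0.0363). ACAT2 fell in all 8 lines. Against the trend on untreated level the difference was 0.75 for ACAT2 (adjusted p = 0.144) and 0.79 for SC5D (adjusted p = 0.0984), and the list had 0 calls. The adjusted p of ACAT2 was 0.0683 without Molt-3 and 0.0588 without Molt-4, and that of SC5D was 0.0818 without FE-PD, 0.083 without JB6, 0.0833 without Karpas 299, 0.0647 without CCRF-CEM, 0.141 without Molt-3 and 0.116 without Molt-4.

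Among 28 AP-1 and immediate early genes 3 had a higher change in ALCL lines, against 1.11% of all genes, and 0 a lower one. The list median was -0.08. DUSP5, a phosphatase of ERK, and ZFP36, which destabilises cytokine mRNA, rose in both types and more in ALCL lines. DUSP5 changed by 2.73, 1.58, 2.69 and 2.32 in ALCL lines and by 0.40, 1.42, 0.64 and 1.07 in T-cell lines (1.45 ± 0.31, adjusted p = 0.0475), and ZFP36 had 1.28 ± 0.25 (adjusted p = 0.0315). DUSP2, another phosphatase of MAP kinases, changed by 0.48 ± 0.49 in ALCL lines and fell by 0.88 ± 0.15 in T-cell lines (1.36 ± 0.24, adjusted p = 0.0228). The adjusted p of DUSP5 was 0.107 without FE-PD, 0.108 without SU-DHL-1, 0.0992 without Karpas 299, 0.0983 without CCRF-CEM, 0.166 without Molt-3 and 0.107 without Molt-4. That of ZFP36 was 0.0741 without FE-PD, 0.0827 without JB6, 0.0571 without Karpas 299, 0.0726 without Jurkat, 0.112 without Molt-3 and 0.104 without Molt-4, and that of DUSP2 was 0.0553 without FE-PD, 0.0506 without JB6, 0.0577 without Karpas 299, 0.0539 without CCRF-CEM, 0.058 without Jurkat, 0.0734 without Molt-3 and 0.0699 without Molt-4.

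Genes with a large response in both types were also set side by side, and none of the 3 given here was called for a difference over all 8 lines. TKTL1, a transketolase-like gene silenced in most tissues, changed by 6.65, 4.71, 3.38 and 4.85 in ALCL lines and by 4.60, 5.01, 4.99 and 3.95 in T-cell lines. Its difference in change was 0.26 ± 0.57, with a 95% interval of -1.01 to 1.53 and an adjusted p of 0.899. DHRS2, a dehydrogenase induced by deacetylase inhibitors, changed by 4.92, 4.47, 4.56 and 2.82 in ALCL lines and by 5.57, 4.82, 3.15 and 3.34 in T-cell lines.

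The difference of DHRS2 was -0.03 ± 0.60 (95% interval -1.36 to 1.30, adjusted p = 0.992). Within lines with a 28S rise it was 1.41 with an adjusted p of 0.0421, past the threshold, and within those without one -2.38 with an adjusted p of 0.199. CDKN1A, the cell cycle inhibitor p21, changed by 1.55 ± 0.88 in ALCL lines and by 1.44 ± 0.47 in T-cell lines (0.11 ± 0.41, 95% interval -0.81 to 1.03, adjusted p = 0.941). An interval that spans 0 does not show equal responses, and for TKTL1 and DHRS2 it spans more than 2-fold either way.

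The enzymes that the 2 drugs bind showed no called difference. DNMT1, the maintenance DNA methyltransferase, changed by -1.23, -2.27, -1.75 and -0.70 in ALCL lines and by -0.08, -0.68, -0.61 and -1.21 in T-cell lines (-0.84 ± 0.35, adjusted p = 0.339). HDAC1, a histone deacetylase, had -0.15 ± 0.25 (adjusted p = 0.86).

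Of 21 cancer-testis antigens, germline genes whose promoters are methylated in most somatic cells, 16 rose in each type. Over all genes 8.04% rose in ALCL lines and 21.7% in T-cell lines. The median change of the list was 0.95 in ALCL lines and 0.74 in T-cell lines. Its median untreated level lay below the floor, at 5.66 in ALCL lines and 5.75 in T-cell lines. Treated medians of single lines lay near the floor, from 6.63 to 6.97 in ALCL lines and 6.85 to 7.11 in T-cell lines. None of the 21 differences was called, and their median was -0.03. SSX3 changed by 1.33, 1.27, 1.58 and 0.94 in ALCL lines and by 3.74, 1.99, 2.28 and 1.95 in T-cell lines (-1.21 ± 0.37, adjusted p = 0.174), with no overlap. DAZL, a germ cell RNA-binding protein on the list of germline genes, changed by 2.53, 0.29, 1.29 and 2.32 in ALCL lines and by 4.84, 4.05, 3.40 and 2.19 in T-cell lines (-2.01 ± 0.61, adjusted p = 0.167).

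Of 35 histone genes 10 rose and 3 fell in ALCL lines, and 26 rose and 2 fell in T-cell lines. Over all genes 8.04% rose in ALCL lines and 21.7% in T-cell lines. The difference in change of the histone genes was negative for 32 of 35, with a median of -0.34 and 0 calls. Metallothioneins, which bind metal ions, rose by a median of 1.41 in ALCL lines and 1.37 in T-cell lines, with 6 of 9 called in ALCL lines and 8 of 9 in T-cell lines. Their median difference was 0.19 with 0 calls. Of 14 MHC class II genes 0 differences were called at a median of -0.81, which was -0.20 against the trend on untreated level and -0.18 in the 4 level-matched members. Without SU-DHL-1 there were 4 lower calls at a median of -1.13. In ALCL lines 1 of the 14 fell (13.4% of all genes), and in T-cell lines 7 rose (21.7% of all genes). CD74, the invariant chain, changed by -0.50, -1.07, 0.16 and -0.21 in ALCL lines and by 0.59, 0.73, 0.59 and 0.42 in T-cell lines (-0.99 ± 0.25, adjusted p = 0.0971), and 3 of the 4 untreated ALCL lines were above the ceiling. Without SU-DHL-1 the difference of CD74 was -1.18 (adjusted p = 0.0452).

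**Figure D5:**
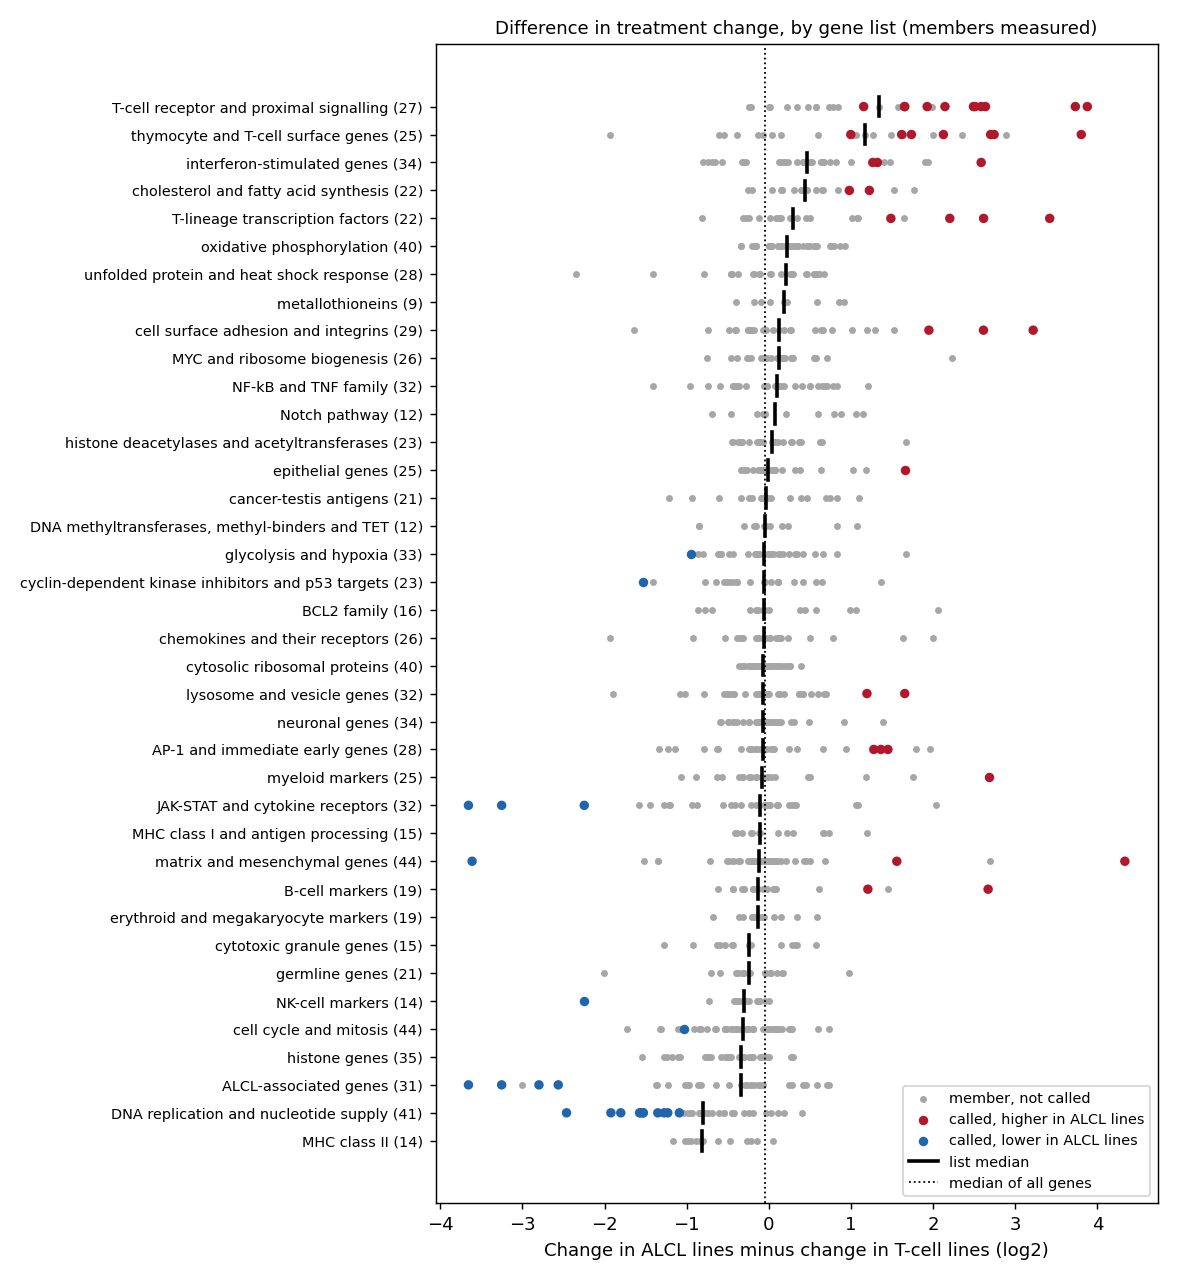
Difference in change (ALCL minus T-cell, log2, horizontal axis) of every measured member of 38 gene lists, ordered by the list median (black bar), with the number measured in brackets. Called members are red where the change was higher in ALCL lines and blue where it was lower, and the dotted line is the median of all genes (-0.05). T-cell receptor and thymocyte genes lie furthest right, and MHC class II and DNA replication genes furthest left.

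Other probe sets of the called genes were read on the same arrays, so they check the choice of probe set and not the spread between lines. Of the 201 called genes 66 had 108 further probe sets, 103 of which gave a difference of the same sign. For 71 of the 108 it had the same sign and at least 1/2 the size. No share for probe sets of other genes was computed. Of the 108, 43 were called in the same direction and 0 in the opposite one. Of the 52 called genes described above, 8 lost the call against the trend on untreated level (CD3E, TNFRSF8, IL2RB, ZWINT, IRF1, OAS3, ACAT2 and SC5D, adjusted p between 0.0504 and 0.144). With values raised to the floor 32 lost it (0.0552 to 0.479), and with the untreated level as a covariate 44 (0.072 to 0.998). The 32 include CD3E, TNFRSF8 and IL2RB, which had no value under the floor. A call lost there does not by itself show low signal. Within the 5 lines with a 28S rise 223 genes were called, 109 of them among the 201. Within the 3 without it limma made 0 calls, with 1 ALCL line and 2 T-cell lines, and 1296 genes had an unadjusted p under 0.05.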

How the data were processed

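Expression was measured in 8 human cell lines, each untreated and treated, with 16 HG-U133A arrays (n = 4 per group). The deposited log2 values were made by the authors by robust multi-array averaging, RMA, per the submitters' processing notes, which also name R 2.10.1. For probe definitions and filters the sources used here give nothing. Values ran from 3.36 to 14.4. Neither detection calls nor scanner files were used here. The number of arrays limits the precision and no gene is said to be above background.

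Of 22283 probe sets, 19065 had 1 gene symbol in the platform's annotation, 1043 several, 68 were controls and 2107 had none listed. The probe set with the highest mean stood for each of 11963 genes, which mattered for 4310. Of these genes 11954 were found in RefSeq. Promoter windows are RefSeq's (GRCh38.p14). They were at hand for 79.9% of genes tested and 76.6% of those called, under the 80% needed, so a comparison of CG content between gene sets is void and not given.

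Groups came from the labels. limma 3.58.1 in R 4.3.3 (lmFit, eBayes, two-sided, Benjamini-Hochberg) fitted all arrays with the line as a block, leaving 6 residual degrees of freedom. The block pairs a line's treated and untreated arrays, whose deviations from group means had r between 0.33 and 0.643. Each line's own pair correlated best, though for Molt-3 the value with its own array (0.413) was close to that with Molt-4 (0.399). Measures per line used exact permutation tests. In 10 simulations of the interaction on 11963 genes, 47.6% of genes differing 2-fold and 96% of those differing 4-fold were called, and 5.46% of calls were false. The noise was drawn independently for each gene and array. Related lines such as Molt-3 and Molt-4 (r = 0.931) were thus not imitated, and these shares need not hold for the calls given here.

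The comparison, gene lists and rule for naming genes were chosen with earlier results of these data known. Genes named were drawn from the 12 highest and 12 lowest differences in change with no overlap, the 8 highest and 8 lowest level-matched ones, the 6 largest each way among genes called in opposite directions, up to 4 members of each described list, by smallest adjusted p, and a set of genes known from this field. Alternatives covered the block, the probe sets, a filter on the lowest 40% of genes, array scaling, the untreated level and the floor, the 28S and ACTB controls, and each line left out. Averaging Molt-3 and Molt-4 was chosen after seeing the data.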

Additional observations from a re-analysis of the deposited data

Results flagged for a closer look

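A test of the difference itself separated the treatment changes of ALCL and T-cell lines for 201 genes (limma, adjusted p below 0.05), and each of them described above is given here with its difference in change, ALCL minus T-cell, on the log2 scale. For genes of the T-cell receptor programme it was 3.88 for LCK, 3.73 for TRAT1, 2.64 for UBASH3A, 2.49 for CD3G and 1.93 for CD3E. For thymocyte genes and T-lineage factors it was 3.80 for ADA, 3.42 for TOX, 2.74 for RAG1, 2.70 for CD1D, 2.61 for BCL11B and 2.13 for CD7. Other genes that fell in T-cell lines gave 3.21 for GNA15, 3.13 for ALDH1A2, 2.95 for PRKCH, 2.61 for ITGB2, 2.60 for NRN1, 2.68 for AIF1, 2.67 for IGLL1 and 1.21 for CR2.

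Among genes that rose in ALCL lines it was 4.61 for AGT, 4.33 for SPP1, 2.96 for SLPI, 2.62 for ENPP2, 1.96 for STC1, 1.95 for CD44, 1.92 for DEPP1 and 1.66 for S100P. Interferon, sterol and immediate early genes gave 2.59 for IFI16, 1.32 for IRF1, 1.27 for OAS3, 1.22 for ACAT2, 0.98 for SC5D, 1.45 for DUSP5, 1.36 for DUSP2 and 1.28 for ZFP36.

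Genes with a lower change in ALCL lines gave -3.71 for CACNA2D3, -3.66 for IL2RA, -3.61 for GAS1, -3.25 for IL26, -2.80 for LGALS1, -2.76 for APOBEC3B, -2.65 for TNS3, -2.56 for TNFRSF8 and -2.25 for IL2RB. Replication and mitotic genes gave -2.46 for RRM2, -1.94 for PCLAF, -1.92 for TK1, -1.80 for TYMS, -1.62 for SLBP, -1.57 for MCM4, -1.23 for PCNA and -1.03 for ZWINT.

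Single lines stood apart from the other 3 lines of their type in 8 of the genes described, by Dixon's test at the 95% level. The test was run on all 65 genes described, in each of the 2 cell types. Chance alone puts about 1 in 20 such groups past that level, so the number found is near what chance alone gives. FE-PD had a change of 4.54 for ID2 and 3.15 for ENPP2. JB6 had -2.73 for MCM4 and -2.19 for IFI16, and Karpas 299 had -2.33 for IL26. CCRF-CEM had -2.71 for ADA, -1.44 for AIF1 and 0.32 for RRM2. Each of these calls, other than ID2, which was not called, and MCM4 and RRM2, was kept without any 1 line.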

How the results depend on the processing

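The 201 differences in change moved by over 1.5 times under the settings given here. With no replicate block, which drops the pairing of a line's 2 arrays, 62 were called. Centring on the hybridisation spikes gave 68, with 77.9% of them higher in ALCL lines against 66.2% before, and 3215 calls in T-cell lines. It moved the median change of all genes to -0.46 in ALCL lines and -0.53 in T-cell lines. Values raised to the floor left 65 calls, the untreated level as a covariate 27, and lines with no 28S rise alone 0. Molt-3 and Molt-4 averaged as 1 line gave 74. With each line left out in turn there were 67 to 195 calls, and 1432 to 2648 for treatment in ALCL lines, 2520 to 5493 in T-cell lines and 455 to 1195 between untreated types. Without Molt-3 or Molt-4 the calls between untreated types numbered 455 and 476, in place of 1048. With the untreated level as a covariate the difference in change turned to -1.17 for LCK, -0.59 for CD3G, -2.86 for CD3E and 0.59 for TNFRSF8, none of them called. Under 26 alternatives the 52 called genes described had 1337 values, of which 1038 kept the direction and the call and 295 the direction alone, and the 4 just named turned. The 13 genes described without a call had 337, of which 11 passed the threshold and 18 changed sign. Among them DHRS2 turned to 1.41 in lines with a 28S rise alone (adjusted p = 0.0421). Without Molt-3 18 of the 52 calls among these genes were lost. Low signal limits what can be seen of falls from below the floor, and 4 lines per type limit the rest.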
